A study of Mus musculus with 2 samples.

Results

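Chromatin accessibility was described at 7 mouse genes of cholesterol synthesis and its control, namely *Hmgcs1*, *Idi1*, *Sqle*, *Lss*, *Srebf2*, *Insig1* and *Insig2*. The genes were taken by name. A region belonged to a gene when the deposited table named that gene, by symbol or by Ensembl identifier, as the one with the closest transcription start site (TSS). Of 69549 distinct regions with 27433 closest genes in all, 15 regions belonged to 6 of the 7 genes. A promoter region is one whose centre lies within 1 kb of that TSS, and 6 of the 15 were promoter regions, of 14387 in all. *Idi1* had no region by this rule, because the table gave the region over its start to a neighbouring gene. A further 14 regions, that one included, lie inside or within 5 kb of one of the genes in RefSeq but were given to another TSS. They were added after their values were seen, which makes 29 regions. None of the 7 genes encodes a lipoprotein receptor, so uptake was described from a separate list of genes.

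The assay was ATAC-seq, in which the Tn5 transposase cuts open chromatin, so that more reads over a stretch of DNA mean more accessible chromatin. One library came from the pooled liver nuclei of 4 *Mettl3* flox/flox mice and 1 from those of 4 *Mettl3*-HKO mice (*Mettl3* flox/flox *Alb-Cre*+/-), all C57BL/6 and 8 weeks old. Both groups therefore carry the floxed allele of *Mettl3*, an RNA methyltransferase gene. Cre is driven by the albumin promoter, which is active in hepatocytes, whereas the nuclei were those of liver tissue with all its cell types. As each group is 1 pooled library, no spread between mice could be estimated and no test was run, and every interval below is a 95% interval that covers counting error only. The comparison asks where chromatin at these genes differed between the libraries.

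The library totals were about 52826000 and 58038000 reads in *Mettl3* flox/flox and *Mettl3*-HKO, of which 31.7% and 22.3% lay on the regions. Log2 ratios are *Mettl3*-HKO over *Mettl3* flox/flox, scaled to these totals with 1 read added to each count. On this scale the median region stood at −0.38 and the median promoter region at −0.56, so a value near these is that of a typical region. Of all regions, 18.3% were at least 2-fold lower and 13.2% at least 2-fold higher. The *Mettl3* promoter region itself went from 566 to 392 counts, a log2 ratio of −0.66, but accessibility there does not check the deletion. All 8 hepatocyte marker genes had a promoter region, with a summed signal of 94.8 RPM (reads scaled to a common library size) in *Mettl3* flox/flox and 57.5 in *Mettl3*-HKO. Their median log2 ratio of −0.64 was near that of all promoter regions. The signal of endothelial markers was higher in *Mettl3*-HKO, from 3.03 to 7.01 RPM summed over the 7 of 8 genes with a promoter region. Of those 7, 5 were at least 2-fold higher. Those 5 had a peak only in *Mettl3*-HKO and so entered the table through the library in which they were high, whereas *Clec4g* at 0.57 and *Eng* at 0.14, with a peak in *Mettl3* flox/flox, were not past 2-fold. The same holds for the 3 macrophage regions, of 2 of 8 genes, all with a peak only in *Mettl3*-HKO and a median of 1.07. The promoter regions of neither list therefore show a direction on their own. Outside promoters, 24 endothelial regions had a median of 0.82, with 11 at least 2-fold higher and 2 lower, against 15.6% and 18.8% of all such regions. The 9 macrophage ones had a median of 0.10, with 2 higher and 1 lower. The peak calls of these regions were not tallied. Of the stellate markers 2 of 8 had promoter regions, at −2.51 and 0.076. Cholangiocyte markers had promoter regions at 5 of 8 genes, with a median of −0.36. In such bulk nuclei, fewer cells of a type and less accessible chromatin per cell cannot be told apart, and the part of cell composition in the values below was not tested.

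Liver makes much of the body's cholesterol through a long series of enzymes that starts from acetyl-CoA. Their genes are switched on by SREBP2, the product of *Srebf2*, a transcription factor that is made as a precursor in the membrane of the endoplasmic reticulum. When sterols are scarce, the escort protein SCAP carries the precursor to the Golgi, where proteases free the active part. When sterols are plentiful, the INSIG proteins hold SCAP in the endoplasmic reticulum.

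At the TSS the authors used, and at the *Idi1* start, every region had a peak in both libraries and none differed 2-fold, whereas several regions elsewhere, among them one over a further RefSeq start of *Insig2*, differed several-fold. The log2 ratios of the 6 promoter regions ran from −0.84 at *Lss* to 0.028 at *Insig2*, with a median of −0.53 against −0.56 over all promoter regions. None of the 6 was at least 2-fold lower, against 16.3% of all promoter regions, and none at least 2-fold higher, against 4.07%. At 1.5-fold, 2 of the 6 were lower, against 47.8%. Among the 4089 promoter regions within the range of signal of the 6, the middle 80% ran from −1.09 to −0.29 and 1.32% were above 0, and *Insig2* and *Hmgcs1* lay above that middle 80%. The largest differences were 3 adjoining regions downstream of *Insig1*, 6.61- to 9.34-fold lower in *Mettl3*-HKO, and a pair at *Insig2*, one over an upstream start and one beyond the 3′ end, 4.93- and 6.31-fold lower. A region beyond *Sqle*, inside *Washc5*, was 4.78-fold higher. Among the 9 regions outside promoters that belonged to the genes by closest TSS, 4 were at least 2-fold lower, against 18.8% of all such regions, and 1 was at least 2-fold higher, against 15.6%. As 3 of those 4 adjoin each other at *Insig1*, they are not separate observations. The strongly lower regions at *Insig1* and *Insig2* had a peak only in *Mettl3* flox/flox and were listed through that library alone. Of the 10513 regions outside promoters of that kind, the median was −1.03 and 9.20% were at least 4-fold lower. The *Insig2* region beyond the 3′ end lies within 1 kb of another TSS and belongs with the 1188 promoter regions of that kind, of which the median was −0.98 and 5.56% were at least 4-fold lower.

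**Figure D1:**
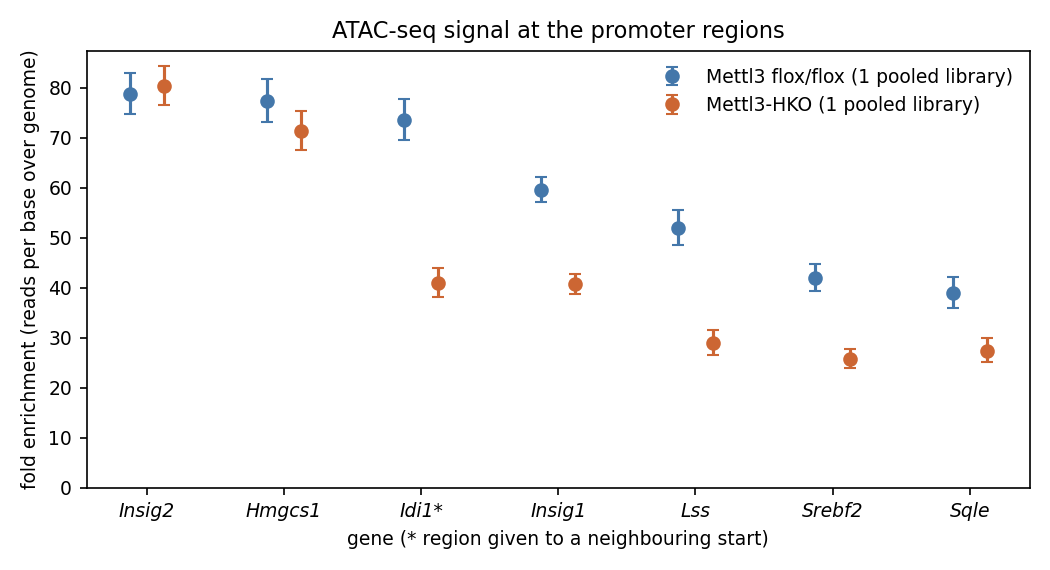
Fold enrichment at the promoter region of each gene in the *Mettl3* flox/flox library (blue) and the *Mettl3*-HKO library (orange), as reads per base in the region over reads per base in the genome, with 95% Poisson intervals that cover counting error only. *Insig2* and *Hmgcs1* have the highest values in both libraries (78.9 and 77.4 in blue, 80.4 and 71.4 in orange), but in blue their intervals overlap that of *Idi1*. The region over the *Idi1* start, which the table gives to a neighbouring TSS, goes from 73.6 to 41.0.

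To compare levels between genes, the deposited fold enrichment was used, which counts reads per base and so does not depend on the length of the region. In *Mettl3* flox/flox the order from the top was *Insig2* at 78.9, *Hmgcs1* at 77.4, *Idi1* at 73.6, *Insig1* at 59.6, *Lss* at 51.9, *Srebf2* at 42.0 and *Sqle* at 39.0. The intervals of the first 3 overlapped in pairs, as did those of *Srebf2* and *Sqle*, so their order is not resolved even at this depth. In *Mettl3*-HKO the order was *Insig2* at 80.4, *Hmgcs1* at 71.4, *Idi1* at 41.0, *Insig1* at 40.7, *Lss* at 29.0, *Sqle* at 27.4 and *Srebf2* at 25.8. There *Insig2* and *Hmgcs1* stood well clear of the other 5 genes, *Idi1* and *Insig1* were not resolved, and the last 3 overlapped.

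*Hmgcs1* (ENSMUSG00000093930) encodes the cytosolic HMG-CoA synthase, which joins acetyl-CoA and acetoacetyl-CoA at the head of the pathway. Its promoter region, chr13:119689928-119690776 on GRCm38, spans the start and ends in intron 1. It held 1270 counts in *Mettl3* flox/flox and 1288 in *Mettl3*-HKO, or 24.1 and 22.2 RPM, and its log2 ratio was −0.12 (95% interval by the Clopper-Pearson method −0.23 to −0.0025). In a library in which most promoters were lower, this one was nearly level, and 80.6% of all promoter regions had a lower ratio. Among the 10% of promoter regions with the strongest signal, to which it belongs, the median was −0.65 and 10% were above −0.31. Its sign depends on the scaling, since it became 0.26 when ratios were centred on the median region and 0.45 when centred on the median promoter region.

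The 250 bases before the RefSeq start of *Hmgcs1* (GRCm38.p6, plus strand, chr13:119690101-119690350) are shown because they are the only one of the windows searched that holds the SREBP motif. Capitals mark the SREBP motif TCACNCCAC and the NF-Y motif CCAAT, on either strand.
Hmgcs1: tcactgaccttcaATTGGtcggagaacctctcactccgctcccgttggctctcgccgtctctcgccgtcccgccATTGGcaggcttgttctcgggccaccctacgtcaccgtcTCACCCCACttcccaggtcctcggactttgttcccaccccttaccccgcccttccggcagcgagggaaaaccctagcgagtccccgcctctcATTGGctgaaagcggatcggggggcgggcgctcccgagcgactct

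The SREBP match TCACCCCAC lies 137 to 129 bases before the start, between NF-Y matches at −176 and −45, and a further NF-Y match lies at −237. Promoter sequences from RefSeq were found for 6 of the 7 genes, with 8 start sites, as *Insig2* has 3. *Sqle* had no entry. The SREBP motif was found in 1 of the 8 windows, against 1.05% of 32851 mouse promoter windows of the same length. At least 1 NF-Y match was found in 6 of the 8, covering all 6 genes, against 33.8% of all windows, and at least 1 match of the Sp1 motif GGGCGG in 7 of the 8, against 32.7%. SREBP, NF-Y and Sp1 are known to act together at sterol-regulated promoters. No 2 matches overlapped, and a match is a description of the letters and not of a bound factor.

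Beyond its promoter, *Hmgcs1* had 5 regions that the table gave to another start (ENSMUSG00000114934). The strongest, in intron 2 at chr13:119698399-119698914, went from 312 to 227 counts, a log2 ratio of −0.59 (95% interval −0.85 to −0.34). Relative to the promoter region of the same gene, its reads were fewer in *Mettl3*-HKO, with a log2 odds ratio of −0.48 (95% interval −0.76 to −0.20). That value does not depend on the scaling. Of all regions outside promoters, 36.1% had a lower ratio than the intron 2 region, whereas the promoter region had a high ratio among promoters. The other 4, from the 3′ UTR to 22.9 kb from the TSS, had log2 ratios from −1.12 to −0.54, with 103 to 172 counts in *Mettl3* flox/flox. The lowest pair, at −1.06 and −1.12, had a peak only in *Mettl3* flox/flox and was listed through that library alone, while the other 3 of the 5 had a peak in both and also lay below the promoter region.

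*Idi1* (ENSMUSG00000058258) encodes isopentenyl-diphosphate isomerase, which interconverts the building blocks of the isoprenoid chain. The region over its start, chr13:8885392-8886286, is centred in the *Idi1* 5′ UTR and ends in intron 1, but the TSS of ENSMUSG00000113245 lies nearer to its centre, at 15 bp. It went from 1273 to 778 counts, or 24.1 to 13.4 RPM, a log2 ratio of −0.85 (95% interval −0.98 to −0.72). With about as many reads as the *Hmgcs1* promoter in *Mettl3* flox/flox, it was 1.80-fold lower in *Mettl3*-HKO, where that of *Hmgcs1* was 1.08-fold lower. Counted with the promoters, a choice made after its value was seen, this region gave a median of −0.55 over 7.

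*Sqle* (ENSMUSG00000022351) encodes squalene epoxidase, the first oxygen-adding and a rate-limiting enzyme of the sterol branch. Its promoter region, chr15:59314580-59315431, runs from upstream of the start into exon 1 and went from 641 to 496 counts, or 12.2 to 8.56 RPM. The log2 ratio was −0.51 (95% interval −0.68 to −0.33), close to the median of all promoter regions, and became 0.058 when centred on it. Inside the gene, a region of intron 1 (chr15:59317147-59317372) held 65 and 77 counts, and its log2 ratio of 0.11 had an interval, −0.39 to 0.61, that includes 0. It had a peak only in *Mettl3*-HKO. A region of intron 2 (chr15:59319879-59320103) held 77 and 59 counts with a log2 ratio of −0.51 (95% interval −1.03 to −0.012). Relative to the promoter, the log2 odds ratio of the intron 1 region was 0.61 (95% interval 0.087 to 1.14), but it was listed through *Mettl3*-HKO alone, and regions outside promoters with a peak only there had a median log2 ratio of 1.09. That of intron 2 was not separated from the promoter at this depth, at −0.014 (95% interval −0.56 to 0.52).

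The fourth *Sqle* region was much higher in *Mettl3*-HKO. It lies 23.6 kb from the *Sqle* TSS, beyond the gene, in intron 25 of *Washc5*, at chr15:59338457-59338897, and is tied to *Sqle* by distance alone. It went from 38 to 204 counts, or 0.738 to 3.53 RPM, a log2 ratio of 2.26 (95% interval 1.78 to 2.83), and 2.14% of all regions outside promoters had a higher one. A peak was called in both libraries. Set against the *Sqle* promoter, its reads went from 0.059 to 0.41 per promoter read, a log2 odds ratio of 2.79 (95% interval 2.26 to 3.36).

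*Lss* (ENSMUSG00000033105) encodes lanosterol synthase, which folds the epoxide that *Sqle* makes into the first sterol. Its promoter region, chr10:76530973-76531807, went from 838 to 514 counts, or 15.9 to 8.87 RPM. The log2 ratio of −0.84 (95% interval −1.0 to −0.68) was the lowest of the 6 promoter regions, although 25.7% of all promoter regions were lower still. A region in intron 5, chr10:76537538-76537949, went from 123 to 79 counts, a log2 ratio of −0.77 (95% interval −1.20 to −0.36). A difference between intron and promoter was not detectable at this depth, with a log2 odds ratio of 0.066 (95% interval −0.39 to 0.52).

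**Figure D2:**
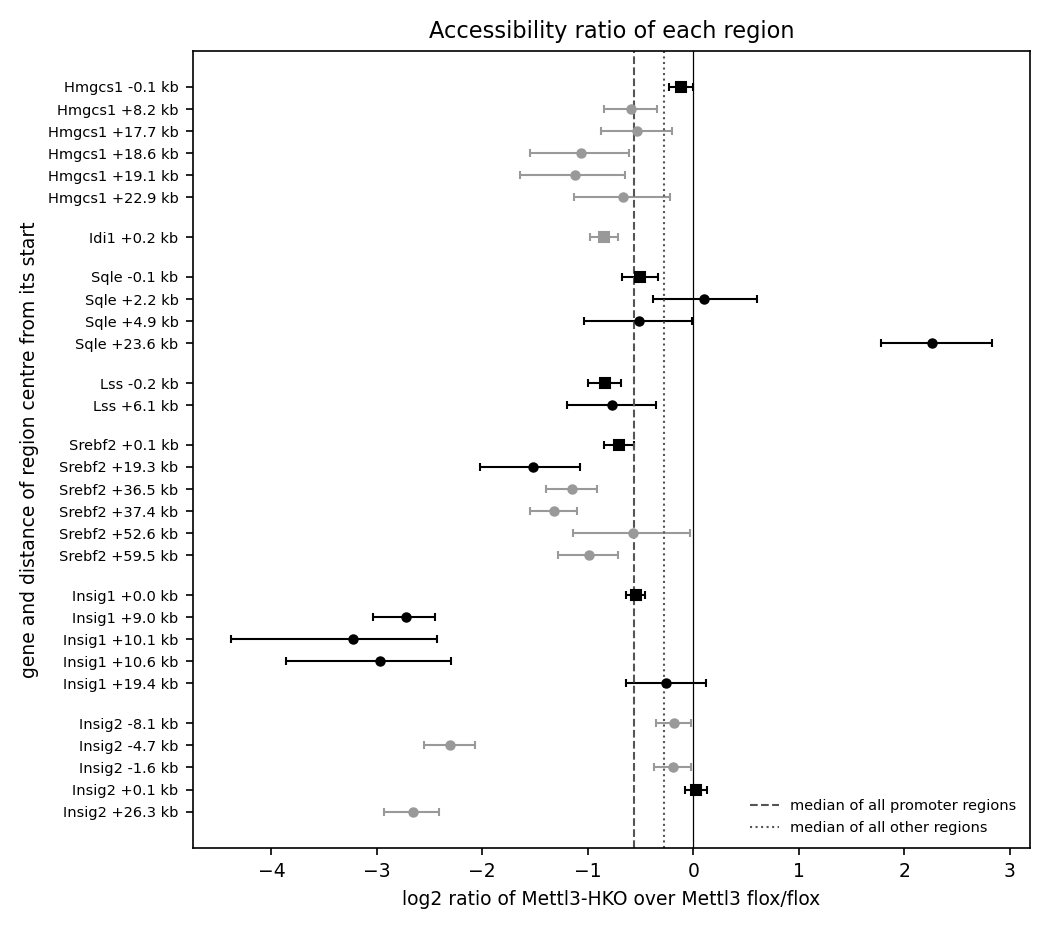
Log2 ratio (*Mettl3*-HKO over *Mettl3* flox/flox) for the 29 regions, with 95% Clopper-Pearson intervals that cover counting error only. Each row names the gene and the signed distance of the region's centre from the gene's start. Squares are the promoter regions by closest TSS and the region over the *Idi1* start, and circles are other regions, black for regions given to the gene by closest TSS and grey for those given to another TSS. The squares lie between −0.85 and 0.028, whereas 3 regions downstream of *Insig1* and the pair at *Insig2* lie below −2 and the region 23.6 kb from *Sqle* lies at 2.26.

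*Srebf2* (ENSMUSG00000022463) encodes SREBP2 itself and hosts the microRNA miR-33 in one of its introns. Its promoter region, chr15:82146788-82148022, is centred in the 5′ UTR and went from 1003 to 676 counts, or 19.01 to 11.7 RPM, a log2 ratio of −0.70 (95% interval −0.85 to −0.56). Of all promoter regions 36.7% were lower. The sequence before its start (GRCm38.p6, plus strand, chr15:82147019-82147268) is shown because *Srebf2* encodes the regulator of the synthesis enzymes, with the NF-Y match in capitals as before. It also holds 4 Sp1 matches and no match of the SREBP motif as searched.
Srebf2: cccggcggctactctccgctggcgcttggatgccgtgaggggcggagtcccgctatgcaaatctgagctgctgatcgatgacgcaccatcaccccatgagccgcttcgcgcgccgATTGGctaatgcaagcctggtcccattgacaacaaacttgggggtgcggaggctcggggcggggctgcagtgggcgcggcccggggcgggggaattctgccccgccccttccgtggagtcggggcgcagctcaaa

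Within the gene all regions were lower in *Mettl3*-HKO, and a pair in intron 10, with peaks in both libraries, by more than the promoter. In intron 1, 19.3 kb from the TSS, chr15:82166242-82166929 went from 140 to 53 counts, a log2 ratio of −1.52 (95% interval −2.02 to −1.07), and its peak was called only in *Mettl3* flox/flox. In intron 10, an adjoining pair at chr15:82183398-82184063 and chr15:82184244-82185094 went from 443 to 219 and from 533 to 234 counts, log2 ratios of −1.15 and −1.32. Together the pair held nearly as many reads as the promoter in *Mettl3* flox/flox, 0.97 per promoter read, and 0.67 in *Mettl3*-HKO, a log2 odds ratio of −0.54 (95% interval −0.76 to −0.32). For intron 1 the same comparison gave −0.83 (95% interval −1.34 to −0.34), with the limit that its region was listed through *Mettl3* flox/flox alone. A weak region of intron 17, with 68 and 50 counts, stood at −0.57, or 0.074 when centred on the strongest 10% of promoter regions, and one beyond the 3′ end beside *Shisa8*, with 287 and 158 counts, at −0.99.

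The table gave the intron 10 pair to ENSMUSG00000065465, whose position is that of the RefSeq *Mir33* hairpin at chr15:82198122-82198190. The pair lies 14.4 and 13.5 kb before it. The mature strands of miR-33, a microRNA known to act on transcripts of cholesterol export, are shown because this host gene carries them, as RefSeq gives them, with the seed (bases 2 to 8) in capitals.
miR-33-5p: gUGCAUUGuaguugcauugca
miR-33-3p: cAAUGUUUccacagugcaucac

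**Figure D3:**
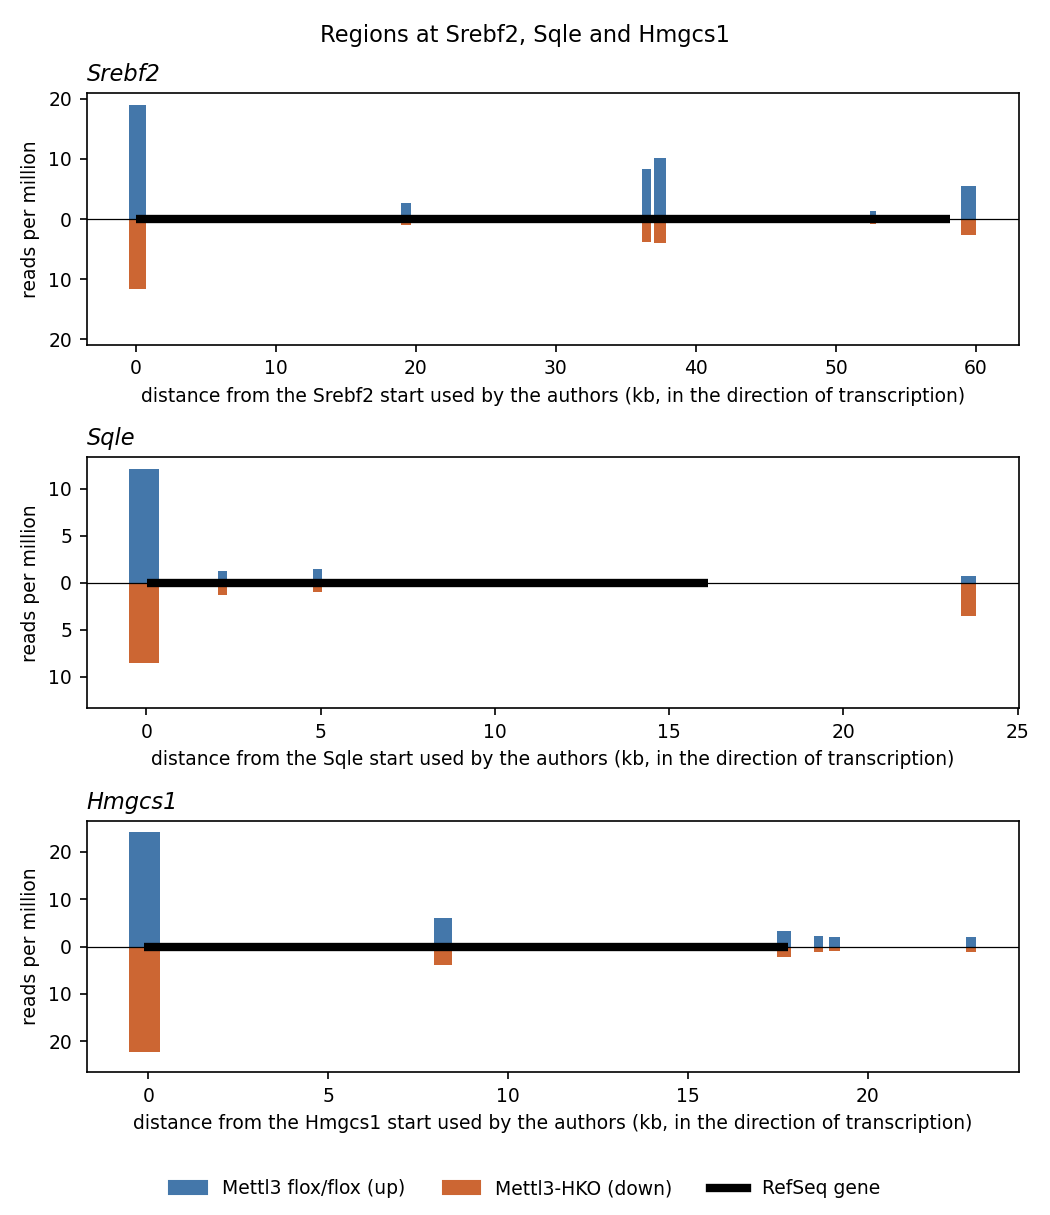
Maps of the regions at *Srebf2*, *Sqle* and *Hmgcs1*, drawn to scale by distance from the TSS in kb, with RPM in *Mettl3* flox/flox upward in blue and in *Mettl3*-HKO downward in orange. The bar at 0 is the RefSeq gene. The *Srebf2* pair in intron 10 is taller in blue (8.40 and 10.1 RPM) than in orange (3.79 and 4.05 RPM), and the region beyond *Sqle* is taller in orange (3.53 RPM against 0.738).

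The INSIG genes carried the largest differences. *Insig1* (ENSMUSG00000045294) encodes the INSIG protein whose own transcription follows SREBP2 activity. Its promoter region, chr5:28070453-28072353, is 1901 bp long with 5 summits, the widest and most read-rich of the 7 genes, and went from 2189 to 1645 counts, or 41.5 to 28.4 RPM. The log2 ratio of −0.55 (95% interval −0.64 to −0.46) was that of a typical promoter, with 51.6% of promoter regions below it. Centred on the median promoter region it stood at 0.016.

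Downstream of the gene the picture differed. The region at chr5:28079609-28081193, 9.04 kb from the TSS and 1585 bp long, went from 691 to 114 counts, or 13.1 to 1.98 RPM, a log2 ratio of −2.72 (95% interval −3.03 to −2.45). A peak was called there only in *Mettl3* flox/flox, and of the regions outside promoters of that kind 9.20% were at least 4-fold lower. Of all regions outside promoters, 0.421% had a lower ratio than this one. Its neighbours at chr5:28081354-28081588 and chr5:28081812-28082022 went from 101 to 11 and from 127 to 17 counts, with log2 ratios of −3.22 (95% interval −4.38 to −2.43) and −2.97 (95% interval −3.86 to −2.30). Both also had a peak only in *Mettl3* flox/flox. By contrast, the next region, chr5:28090573-28090992 at 19.4 kb, held 125 and 115 counts with a log2 ratio of −0.26 (95% interval −0.63 to 0.12).

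Summed, the 3 regions had 919 counts against 2189 in the promoter in *Mettl3* flox/flox, or 0.42 per promoter read. In *Mettl3*-HKO they had 142 against 1645, or 0.086. The log2 odds ratio was −2.28 (95% interval −2.56 to −2.01), and no scaling of the libraries changes it. It carries the limit that the 3 regions were listed through *Mettl3* flox/flox alone. For the region at 19.4 kb it was 0.29 (95% interval −0.098 to 0.68). On the other side, the 8 regions between 10 and 50 kb upstream of *Insig1* had 148 to 1293 counts in *Mettl3* flox/flox and log2 ratios from −1.08 to −0.60, none near those downstream.

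*Insig2* (ENSMUSG00000003721) encodes the other INSIG protein and is known to be transcribed from separate starts, one of them used chiefly in liver. RefSeq lists 3 starts on GRCm38, and the gene lies on the minus strand of chromosome 1. The promoter region by closest TSS, chr1:121327492-121328435, covers the starts at 121328024 and 121327678. It held 1439 counts in *Mettl3* flox/flox and 1612 in *Mettl3*-HKO, or 27.3 and 27.8 RPM, a log2 ratio of 0.028 (95% interval −0.075 to 0.13). This was the highest ratio of the 6, with 84.6% of promoter regions below it. It belongs to the same 10% of strongest promoter regions as that of *Hmgcs1*, in which the middle 80% ran from −1.04 to −0.31.

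The third start, at 121332589, is covered by chr1:121332435-121332917, centred 4.65 kb upstream of the TSS the authors used and given by the table to ENSMUSG00000104253. There the counts went from 798 to 177, or 15.1 to 3.07 RPM, a log2 ratio of −2.30 (95% interval −2.55 to −2.07). A peak was called only in *Mettl3* flox/flox, and of the regions outside promoters of that kind 9.20% were at least 4-fold lower. Of all regions outside promoters, 1.02% had a lower ratio than this one. The upstream start had 0.55 reads per read of the downstream promoter region in *Mettl3* flox/flox and 0.11 in *Mettl3*-HKO. The log2 odds ratio was −2.34 (95% interval −2.60 to −2.08), with the limit that the upstream region was listed through *Mettl3* flox/flox alone. The files do not show which of the starts is the liver one.

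The 250 bases before each of these starts (GRCm38.p6, minus strand, chr1:121332590-121332839 and chr1:121328025-121328274) are shown because their regions went apart. Capitals again mark NF-Y matches, of which the upstream window holds 3 and the downstream window 0. The upstream window holds no Sp1 match and the downstream one 1, and neither holds the SREBP motif as searched.
Insig2 upstream start: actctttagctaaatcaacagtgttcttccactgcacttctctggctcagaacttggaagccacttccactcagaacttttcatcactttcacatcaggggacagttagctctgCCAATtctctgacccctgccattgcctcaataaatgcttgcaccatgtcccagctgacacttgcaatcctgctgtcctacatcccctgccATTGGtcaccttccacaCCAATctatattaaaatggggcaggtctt
Insig2 downstream start: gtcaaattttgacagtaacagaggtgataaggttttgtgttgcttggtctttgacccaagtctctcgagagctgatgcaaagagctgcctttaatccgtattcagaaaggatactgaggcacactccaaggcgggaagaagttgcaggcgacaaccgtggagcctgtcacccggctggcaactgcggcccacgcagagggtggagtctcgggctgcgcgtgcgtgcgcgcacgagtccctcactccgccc

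The regions on each side of the upstream start did not share its ratio. At chr1:121329387-121329825, between the starts, the counts were 550 and 528, a log2 ratio of −0.19 (95% interval −0.37 to −0.020). At chr1:121335753-121336454, further upstream, they were 600 and 580, a log2 ratio of −0.18 (95% interval −0.35 to −0.018). Both held nearly the same number of reads in the libraries, whereas the region between them was 4.93-fold lower.

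Beyond the 3′ end of *Insig2*, chr1:121301038-121302382 went from 815 to 141 counts, or 15.4 to 2.45 RPM, a log2 ratio of −2.66 (95% interval −2.94 to −2.41), with a peak only in *Mettl3* flox/flox. It lies 26.3 kb from the TSS and 878 bp from that of ENSMUSG00000104332, to which the table gives it. Relative to the *Insig2* promoter the log2 odds ratio was −2.69 (95% interval −2.98 to −2.41). The scaling does not touch this value, but the region was listed through *Mettl3* flox/flox alone.

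**Figure D4:**
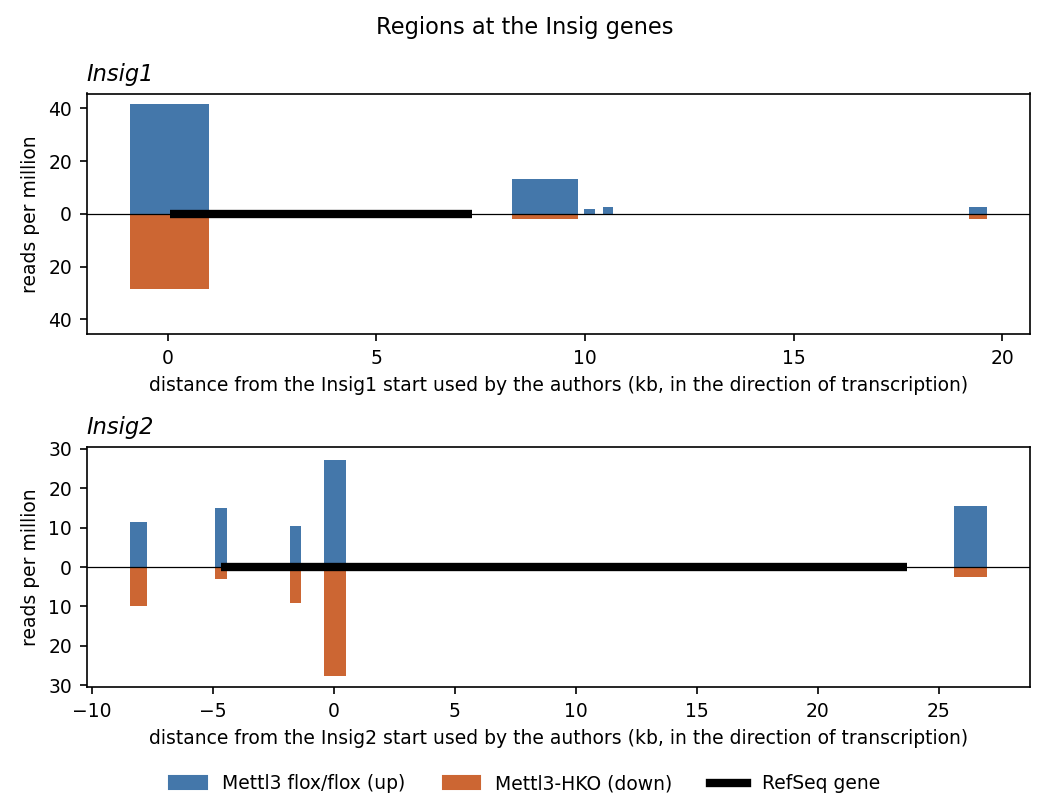
Maps of the regions at *Insig1* and *Insig2*, drawn to scale by distance from the TSS the authors used in kb, with RPM in *Mettl3* flox/flox upward in blue and in *Mettl3*-HKO downward in orange, and the RefSeq gene as the bar at 0. Near the *Insig1* promoter, the region at 9.04 kb shrinks from 13.1 to 1.98 RPM. At *Insig2*, the promoter bars are about equal (27.3 and 27.8 RPM) while those at 4.65 kb upstream (15.1 and 3.07 RPM) and 26.3 kb downstream (15.4 and 2.45 RPM) are not.

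The other cholesterol genes were described from a list of 35, of which 31 had a promoter region and 36 such regions were found. Their median log2 ratio was −0.59, with 4 of 36 regions at least 2-fold lower and 1 at least 2-fold higher, against 16.3% and 4.07% of all promoter regions. Of the 76 regions outside promoters, with a median of −0.48, 15 were at least 2-fold lower and 11 at least 2-fold higher, near the 18.8% and 15.6% of all such regions. By role, the median was −0.66 over 12 regions of synthesis enzymes, −0.45 over 13 regions of SREBP processing and sterol sensing, and −0.57 over 11 regions of uptake and lysosomal export. Fatty acid synthesis genes, the other main SREBP pathway of liver, had a median of −0.78 over 12 regions, with 2 at least 2-fold lower and 0 higher. Bile acid genes had −0.60 over 16, with 3 lower and 0 higher, so that both lists lay near the 16.3% of all promoter regions that were lower.

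Among the enzymes, *Cyp51*, which removes a methyl group from lanosterol, was the one past 2-fold, from 1585 to 795 counts, a log2 ratio of −1.13 (95% interval −1.26 to −1.01). *Fdps*, which makes farnesyl diphosphate, went from 406 to 318 counts, at −0.49. *Mvk*, *Fdft1* and *Dhcr7* had no promoter region under their own TSS. *Scap*, the escort of SREBP2, went from 474 to 265 counts, a log2 ratio of −0.97. The protease genes *Mbtps1* and *Mbtps2*, whose products free the active factor, stood at −0.34, from 1000 to 870 counts, and −0.42, from 709 to 583. Thus the escort and the proteases differed in ratio, with none past 2-fold.

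*Rnf145*, a sterol-responsive ubiquitin ligase that acts on SCAP, had the lowest value of the list. One of its promoter regions, chr11:44518404-44519369, went from 803 to 272 counts, a log2 ratio of −1.69 (95% interval −1.90 to −1.50). Its other one, chr11:44520036-44520684, held 237 and 246 counts, at −0.082 (95% interval −0.35 to 0.18), so that adjoining regions of this gene differed as well.

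In the uptake group, *Mylip*, a ubiquitin ligase that marks lipoprotein receptors for degradation, was the only one above 2-fold, from 61 to 151 counts, a log2 ratio of 1.16 (95% interval 0.73 to 1.63). *Scarb1*, the receptor for high-density lipoprotein, went from 396 to 202 counts, at −1.10 (95% interval −1.36 to −0.86). *Stard4*, a sterol carrier, had a weaker region at −1.04, from 171 to 91 counts, beside its main one at −0.57, from 1118 to 830. The weaker one had a peak only in *Mettl3* flox/flox, and promoter regions of that kind had a median of −0.98. The *Mylip* region is among the weakest of the list. With all promoter regions cut into 10 classes by signal it falls in class 3 from the bottom, in which the median was −0.41 and 10% were above 0.58.

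**Figure D5:**
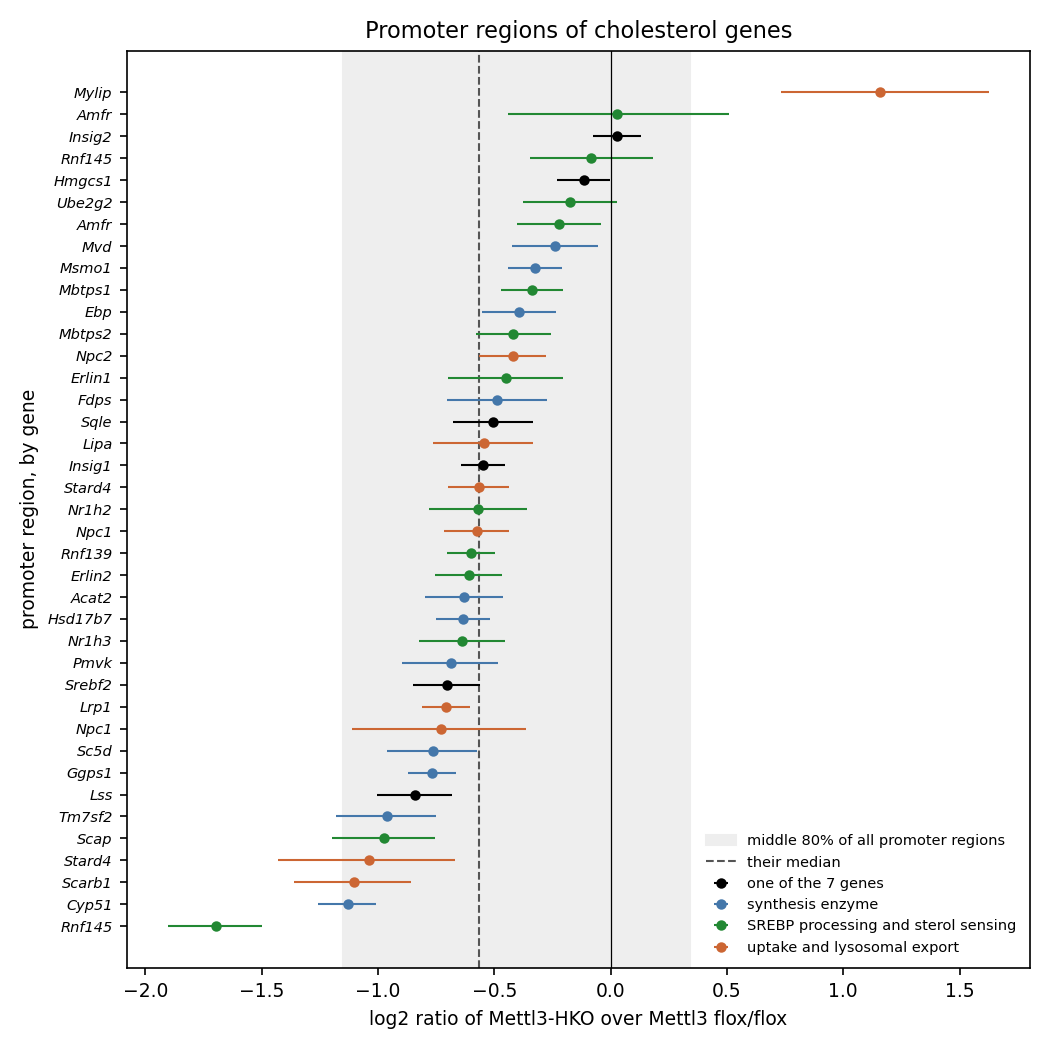
Log2 ratio (*Mettl3*-HKO over *Mettl3* flox/flox) for the promoter regions of the cholesterol genes reported here, 1 row per region, with 95% Clopper-Pearson intervals that cover counting error only. Black marks the genes described above, blue synthesis enzymes, green SREBP processing and sterol sensing, and orange uptake and lysosomal export. The grey band is the middle 80% of all promoter regions and the dashed line their median at −0.56. *Mylip* at 1.16 lies above the band and one *Rnf145* region at −1.69 below it.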

How the data were processed

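ATAC-seq was analysed for 1 pooled library per genotype. Per the methods and labels, the authors removed adaptors (skewer), mapped reads to GRCm38 (BWA) and retained proper pairs outside the mitochondrial genome with a mapping quality filter of 13. MACS2 was run on each library with duplicates retained. Duplicates make counts less independent than the intervals assume. The merging of peaks, the counting of reads and any Tn5 offset are not given in the sources used here. The authors deposited raw counts per region, RPM values, and a fold enrichment, which is the read density of a region divided by that of the genome. Their RPM is the count plus 1 over a total, which was recovered from the values. A column with the authors' own log2 comparison and the columns of peak statistics were not used.

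Of 74821 rows, 5272 repeated a region and were dropped. Log2 ratios were computed from counts with 1 read added, and 95% intervals came from the Clopper-Pearson limits of the *Mettl3*-HKO share of reads. Regions of the same gene were compared by the conditional odds ratio with its exact 95% interval. Called means at least 2-fold. With no replicates no test was run. The genes and lists were chosen with earlier results of these data known. Named genes are the 7 genes and, from the list of 35, 12 chosen by step and any past 2-fold, of which 2 are counted in the list but not reported here. RefSeq gave gene positions, starts and sequences on the same assembly. Scripts were tested on simulated counts. The software was Python 3.11.15 with scipy 1.17.1, pandas 2.3.3, numpy 2.4.6 and, for figures, matplotlib 3.10.9.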

Additional observations from a re-analysis of the deposited data

How the results depend on the processing

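The scaling moved the values most, since it shifts every ratio by the same amount. The median log2 ratio of the 6 promoter regions, −0.53 on the library totals, became −0.15 when centred on the median region, 0.037 on the median promoter region and 0.12 on the median of the strongest 10% of promoter regions. The median of the other cholesterol genes, −0.59, became −0.21, −0.024 and 0.059. That of the 9 regions outside promoters, −0.77, became −0.39, −0.20 and −0.12. *Hmgcs1* then stood above 0 under all 3 scalings, and *Sqle* (0.058 and 0.14) and *Insig1* (0.016 and 0.098) under the last 2, whereas *Srebf2* and *Lss* stayed below 0 and *Insig2* above 0 under each. At a threshold of 1.5-fold in place of 2-fold, 2 promoter regions were lower, against 47.8% of all promoter regions. Under the other settings run (0 or 10 reads added, the upper 50% of signal, promoter windows of 500 and 2000 bp, 1 value per gene and, for the 6 promoter regions, the *Idi1* region included), the promoter median ran from −0.55 to −0.52 and that of the other cholesterol genes from −0.60 to −0.57. That of the regions outside promoters, for which the added reads and the signal filter were run, ran from −0.77 to −0.72. The odds ratios within a gene do not depend on the scaling. No paired analysis was possible because each group has 1 library. Leaving out a replicate was not possible for the same reason, and depth limits the weak regions, such as that in *Sqle* intron 2.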

Other observations

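The surroundings of the INSIG genes and of *Hmgcs1* within 100 kb of the TSS were looked at after the values above were seen. Around *Insig1* lay 18 regions, of which 10 were at least 2-fold lower and 0 at least 2-fold higher in *Mettl3*-HKO, against 18.3% and 13.2% of all regions. The 3 that were more than 4-fold lower are the adjoining ones downstream of the gene, and in all 2.02% of regions outside promoters were 4-fold lower. Around *Insig2* lay 14 regions, with 3 at least 2-fold lower, all of them more than 4-fold, and 2 at least 2-fold higher. The third of these strongly lower regions, besides the one over the upstream start and the one beyond the 3′ end, was chr1:121287358-121287624, 40.5 kb from the TSS, which went from 118 to 9 counts, a log2 ratio of −3.71. The 2 higher ones lay further out on the same side and were weak, with 29 and 78 and with 17 and 49 counts.

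Around *Hmgcs1*, 21 regions included 4 at least 2-fold lower and 6 at least 2-fold higher, against 18.3% and 13.2% of all regions. Their median was 0.29. The 12 regions on the upstream side, its promoter among them, had a median of 0.36, against −0.38 over all regions. The better-read higher ones lay furthest out, from chr13:119596390-119597119 to chr13:119616663-119617547. Nearer to the promoter the higher ones were weak, with 31 and 76, 10 and 26, and 18 and 49 counts. The better-read ones there were lower. Of these, chr13:119673160-119673634 went from 221 to 83 counts, at −1.54, and chr13:119631531-119632161 from 304 to 175, at −0.93. The regions of *Hmgcs1* downstream of its promoter were lower. The peak calls of the upstream neighbours were not tallied. Around *Srebf2*, 13 regions ran from −1.56 to −0.14, with 4 at least 2-fold lower and 0 higher. With 1 library per group, none of these differences between loci was tested.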
